A study of Danio rerio with 6 samples.

Results

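The genes described here encode the enzymes of glycolysis, gluconeogenesis, glycogen turnover, fructose and galactose use, pyruvate dehydrogenase and the tricarboxylic acid (TCA) cycle. They were chosen by name, as a list of 58 zebrafish gene symbols. Of these, 40 had a row among the 6502 rows with a gene ID in the deposited count table. The other 18 (*hk1*, *gpib*, *pfkla*, *pfklb*, *aldoca*, *tpi1a*, *eno1a*, *pkmb*, *pcxa*, *fbp1b*, *g6pcb*, *ugp2b*, *khk*, *galt*, *pdha1a*, *pdha1b*, *idh3b* and *suclg2*) were not analysed here. The list therefore holds no measured phosphofructokinase, the step that commits hexose to glycolysis, and no measured ketohexokinase, the entry step for fructose.

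The RNA came from livers that were dissected at 7 days post fertilization (dpf) from larvae of the zebrafish, *Danio rerio*, and pooled by 15. The groups were cr*keap1a/b* crispant larvae (3 pools) and wild-type (WT) larvae (3 pools). The crispants received Cas9 complexed with guide RNAs by injection at the 1-cell stage, so that knockout of *keap1a* and *keap1b*, the zebrafish paralogs of the Nrf2 repressor Keap1, is mosaic and differs from cell to cell. The labels do not say whether WT embryos received a control injection.

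In the liver, glycolysis splits glucose to pyruvate and gluconeogenesis runs the opposite way, sharing most enzymes but using its own at the irreversible steps. Glycogen is built by glycogen synthase from UDP-glucose and taken down by glycogen phosphorylase. Pyruvate enters the mitochondrion to become acetyl-CoA, which the TCA cycle oxidizes, or oxaloacetate, from which gluconeogenesis starts. Many of these genes are kept in zebrafish as a pair of paralogs, and liver-type and muscle-type isoforms are known from mammals. In mice, activation of NRF2 is known to lower the expression of hepatic gluconeogenic genes.

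Library totals over the rows with a gene ID ranged from 11168187 to 12521687 counts in cr*keap1a/b* and from 9491003 to 15030262 counts in WT. One library in each group stood apart. In replicate 3, whose sample description ends in the letter b where those of replicates 1 and 2 end in a, 47.6% of genes had 0 counts in cr*keap1a/b* and 53.2% in WT, against 2.83% and 7.67% in the other cr*keap1a/b* pools and 8.29% and 13.1% in the other WT pools. The labels do not say what the letter stands for, nor whether pools whose codes share a number before it, as replicate 3 does with 1 other pool of its group, came from separate larvae. Results are therefore given with all 6 pools and again with the 4 libraries of letter a, and what sets the replicate 3 libraries apart was not tested. Summed hepatocyte markers (16 of 16 measured) lay at 105503 to 187868 CPM in cr*keap1a/b* and 156152 to 242464 CPM in WT, so the labelled tissue was marked in every pool. Of these 16 markers, 13 had negative log2 fold changes, with 3 called lower in 6 pools (median −0.45) and 7 called lower within letter a (median −0.50), and none called higher. Biliary markers (3 measured, none called) summed to 757 to 1067 CPM in cr*keap1a/b* and 1172 to 1649 CPM in WT. Exocrine pancreas markers (13 measured, 8 called lower in 6 pools and 10 called lower within letter a) summed to 8645 to 12288 CPM in cr*keap1a/b* and 25733 to 40569 CPM in WT. Skeletal muscle markers (9 measured, none called in 6 pools and 6 called lower within letter a) summed to 217 to 409 CPM in cr*keap1a/b* and 453 to 2457 CPM in WT. Erythrocyte markers (5 measured, none called in 6 pools and 1 called higher within letter a) summed to 432 to 1682 CPM in cr*keap1a/b* and 402 to 509.7 CPM in WT. The part that these marker differences play in the results below was not tested. The counts do not measure the edit itself: *keap1a* and *keap1b* overlapped between the groups, with log2 fold changes of −0.80 ± 3.69 and −0.74 ± 3.31 (SE) and a limma-voom adjusted p of 0.9996 each.

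Levels below are TMM-scaled CPM, counts divided by the library total after correction with TMM factors, and since the libraries read the 3′ end of each transcript, levels of different genes can be set side by side without a length correction. Differences are log2 fold changes of cr*keap1a/b* over WT from limma-voom with their standard error (SE), and a gene was called at a Benjamini-Hochberg adjusted p under 0.05 over all genes tested. The labels give each pool as dissected livers and do not say whether pools whose codes share a number came from separate larvae. The p-values therefore take the pools as labelled, whether or not these are independent. The SE, intervals and p-values of limma-voom rest largely on a spread shared over all genes, with all 6 pools as well as within letter a. They do not test a gene against its own spread between pools alone. In such bulk samples, fewer cells of a type and less RNA per cell cannot be told apart.

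The 40 genes made up 2.96% to 3.90% of the counts in cr*keap1a/b* and 3.30% to 4.20% in WT. They spanned a wide range of levels. *pklr* ranked 14th, *gapdh* 16th and *mdh1aa* 32nd of 6502 genes by mean level, while 14 of the 40 averaged under 50 CPM. All 40 had counts above 0 in cr*keap1a/b* replicates 1 and 2 and in WT replicate 1. In WT replicate 2, 4 were at 0, and in replicate 3, 6 were at 0 in cr*keap1a/b* and 7 in WT. A count of 0 allows a level of up to 0.200 to 0.269 CPM in cr*keap1a/b* and 0.175 to 0.367 CPM in WT, the value of 3 counts, which covers counting error only. In all, 29 of the 40 were above 0 in every pool, against 1935 of all 6502 genes.

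**Figure D1:**
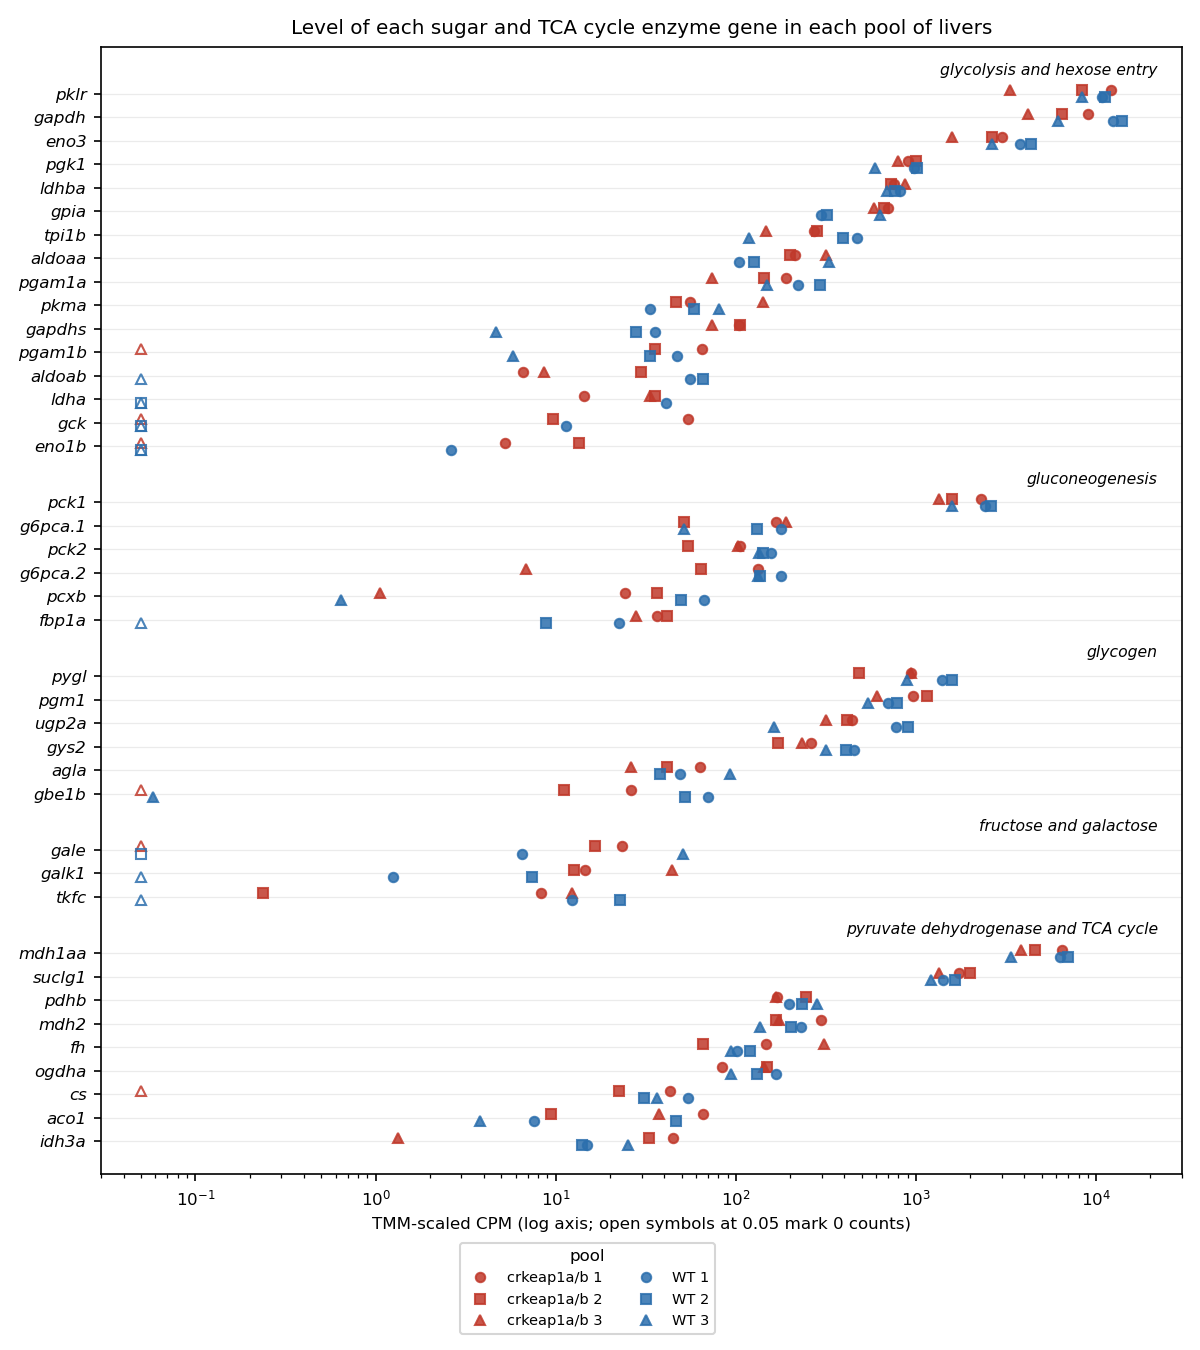
Level of each of the 40 enzyme genes in each pool (TMM-scaled CPM, log axis), by pathway, with cr*keap1a/b* pools in red above WT pools in blue on each line. Circles, squares and triangles are replicates 1, 2 and 3, and open symbols at the left mark 0 counts. Most open symbols are triangles, the replicate 3 libraries, and the most abundant genes show 6 points close together.

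With all 6 pools, 1 of the 40 genes was called, and it was lower: *pklr*, liver pyruvate kinase. None was called higher. The background rate in the same fit was 38 of 6386 genes called higher (0.595%) and 38 called lower (0.595%). The log2 fold change was above 0 for 22 of the 40 and below 0 for 18, but the balance depended on the fit: 17 were above 0 and 23 below within letter a, 19 and 21 by edgeR, DESeq2 and limma with a trend, and 14 and 26 without WT replicate 3. Their median was 0.07, against 0.36 over all genes tested. Over the genes above 0 in every pool, it was 0.04 for the enzyme genes, against 0.01 for the whole table. Unadjusted p-values under 0.05 were given to 6 of the 40 by limma-voom, 1 by edgeR's quasi-likelihood test, 2 by DESeq2 and 3 by limma with a trend. After adjustment the last 3 tests called none of the 40, where edgeR called 0.345% of 6386 genes and DESeq2 3.15% of 4727 genes in either direction. The groups did not overlap at 3 genes higher in cr*keap1a/b* (*gapdhs*, *fbp1a*, *galk1*) and 3 lower (*pck2*, *g6pca.2*, *gys2*). This is 15% of the 40 genes, beside 13.4% of all genes tested (8.39% higher and 5.00% lower), a share near that background. Among genes above 0 in every pool, the share was 13.8% for the enzyme genes, against 22.1% for the whole table. When CPM were scaled by library size in place of TMM factors, the groups overlapped for *pck2* and *g6pca.2*, and those of *eno3* (lower), *pgm1* and *suclg1* (higher) did not.

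Within the 4 libraries of letter a, limma-voom called 6 of the 40 genes: *gpia* and *gapdhs* higher, and *gapdh*, *pygl*, *gys2* and *ugp2a* lower. Here 2.31% of 6456 genes were called higher and 2.15% lower. *pklr* was not among them. Among genes above 0 in all 6 pools, where all 6 calls fell, the share called in either direction was 13.1%, against 3.26% of these genes with all 6 pools. With 2 pools per group, these calls rest on a spread shared over all genes: limma with a trend called 4 of the 6 in the same libraries (*gpia*, *gapdhs*, *pygl* and *ugp2a*), and edgeR's quasi-likelihood test called none of the 40, with 8 at an unadjusted p under 0.05 and a background of 1.86% called in either direction. The letter a fits of edgeR and of limma with a trend were chosen after the data were seen.

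**Figure D2:**
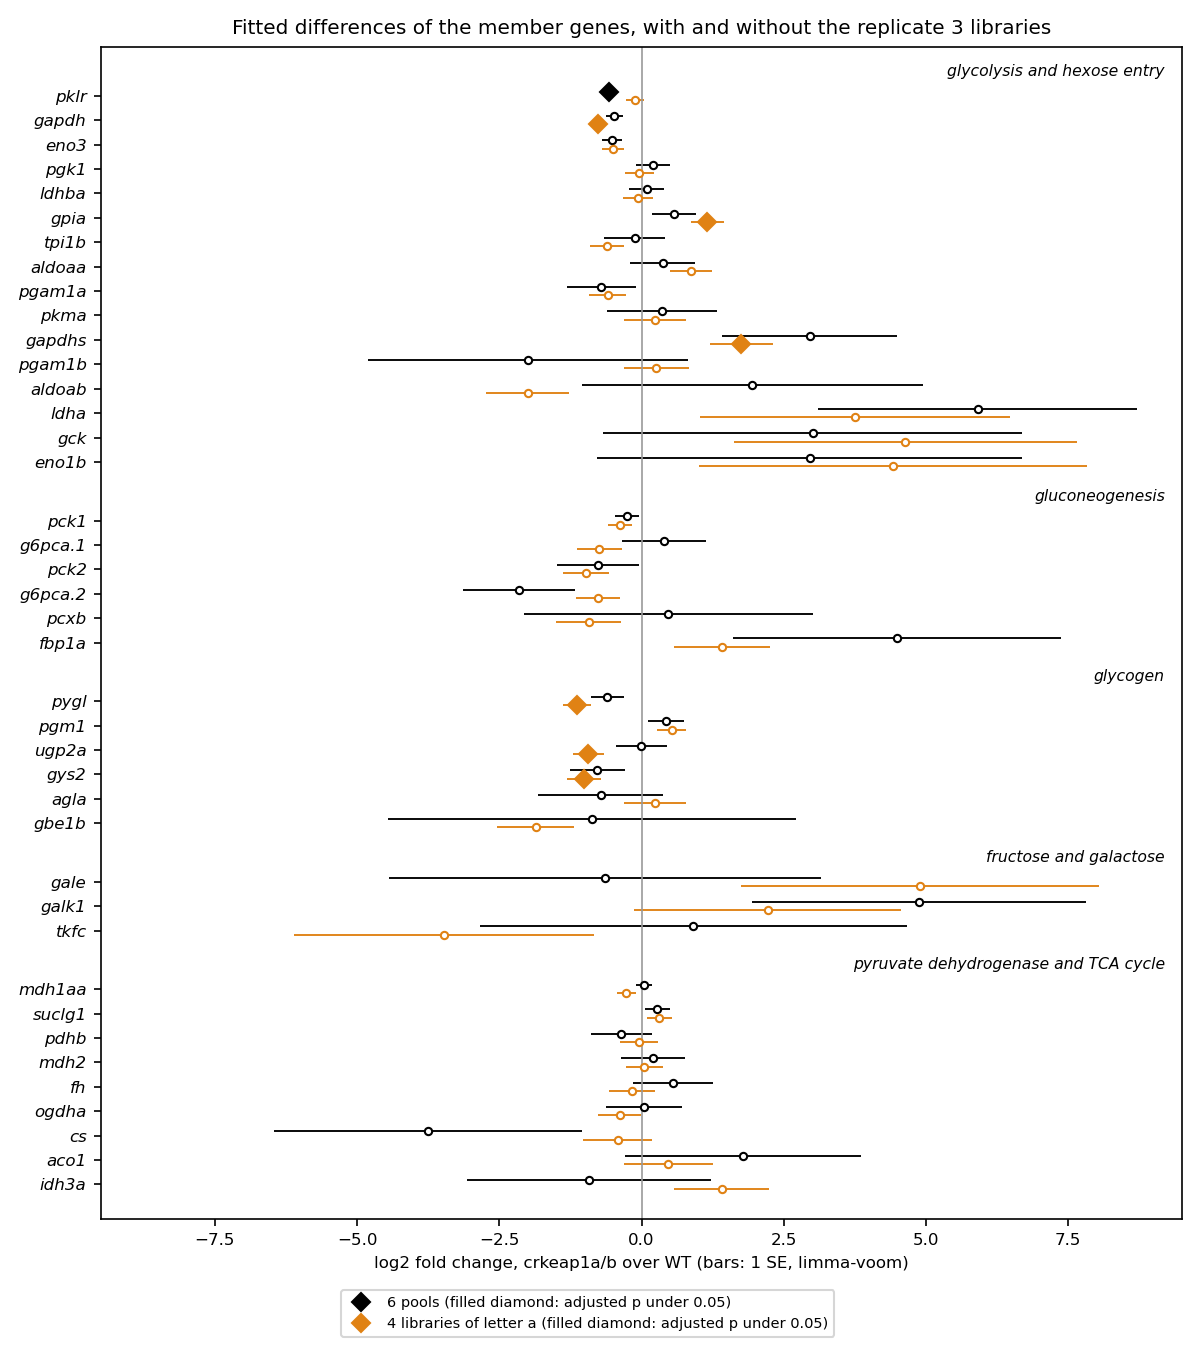
Log2 fold change of each gene, cr*keap1a/b* over WT, from limma-voom with all 6 pools (black) and with the 4 libraries of letter a (orange). Bars are 1 SE and filled diamonds mark an adjusted p under 0.05: *pklr* in the 6-pool fit, and *gapdh*, *gpia*, *gapdhs*, *pygl*, *ugp2a* and *gys2* within letter a. SE widens down each group as the genes become rarer.

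Glycolysis was measured through 16 genes. Their summed level was 27389, 20821 and 12162 CPM in cr*keap1a/b* replicates 1, 2 and 3, against 30118, 32458 and 19709.9 CPM in WT. In both groups replicate 3 was the lowest, and the groups overlapped. Most of this sum came from *pklr* and *gapdh*, which averaged 9018 and 8681 CPM over the 6 pools. With all 6 pools 10 genes had values above 0 and 6 below 0, with 1 called lower. Within letter a, 2 were called higher and 1 lower.

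*pklr* (Entrez ID 114551), which makes pyruvate and ATP at the last step of glycolysis, was the most abundant of the 40. It had 12031, 8405 and 3344 CPM in cr*keap1a/b*, against 10824, 11167 and 8338 CPM in WT. The cr*keap1a/b* pools spread widely, from above every WT pool to below every WT pool, and replicate 3 was the lowest in each group. The mean was 7927 ± 4363 CPM in cr*keap1a/b* and 10109.7 ± 1544 CPM in WT (SD, n = 3 each).

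For *pklr* the log2 fold change was −0.56 ± 0.15 (SE, limma-voom adjusted p = 0.0278). This SE rests largely on the spread shared over all genes, and not on the wide spread of the *pklr* pools themselves. Without cr*keap1a/b* replicate 3 the log2 fold change was 0.05, on the other side of 0. Within letter a it was −0.11 ± 0.15 (limma-voom adjusted p = 0.729). edgeR's quasi-likelihood test and DESeq2 gave *pklr* adjusted p-values of 0.9997 and 0.9999. Keeping the table rows that carry no gene ID in the libraries, a choice made after the data were seen, ended the call (limma-voom adjusted p = 0.516). The call was also lost with no further filter and with a mean count of at least 50 (limma-voom adjusted p = 0.272 and 0.0909). Of the 6 fits that left out 1 pool each, *pklr* was called in 1, the fit without cr*keap1a/b* replicate 1.

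*gapdh* (Entrez ID 317743), glyceraldehyde-3-phosphate dehydrogenase, had 9027, 6469 and 4189 CPM in cr*keap1a/b*, against 12414, 13872 and 6114 CPM in WT. Both cr*keap1a/b* pools of letter a lay below both WT pools of letter a, but above WT replicate 3, so the groups overlapped. With all 6 pools its log2 fold change was −0.48 ± 0.15 (SE) (limma-voom adjusted p = 0.115), which is not a call. Within letter a *gapdh* fell by 0.76 on the log2 scale (limma-voom adjusted p = 6.02e-05), while edgeR and limma with a trend gave 0.287 and 0.305 for the same libraries. It was also called lower without cr*keap1a/b* replicate 1 and without WT replicate 3 (−0.55 and −1.10 on the log2 scale), and in no other fit that left out 1 pool.

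*gapdhs* (Entrez ID 406367), a second glyceraldehyde-3-phosphate dehydrogenase gene whose mammalian counterpart is known from sperm, went the other way. It had 104, 106 and 73.8 CPM in cr*keap1a/b*, against 35.4, 27.8 and 4.66 CPM in WT, so every cr*keap1a/b* pool lay above every WT pool. Across the 6 pools the log2 fold change was 2.95 ± 1.54 (SE) (limma-voom adjusted p = 0.677), not a call, with a 95% interval of −0.11 to 6.02. Within letter a *gapdhs* rose by 1.75 ± 0.56 (SE) on the log2 scale (limma-voom adjusted p = 0.0379, limma with a trend 0.0313, edgeR 0.110).

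Set against its abundant paralog, *gapdhs* had 1.16, 1.64 and 1.76 counts for every 100 of *gapdh* in the crispant pools, and 0.285, 0.200 and 0.0763 in the WT pools. This ratio lies within a library and does not depend on how libraries were scaled, and its groups did not overlap in any pool. It was computed after the values were seen, so it is a description. Reads of paralogs with similar 3′ ends could be split between them by the counting, which was not tested. The same ratio of the pyruvate kinases, *pkma* per 100 *pklr* counts, overlapped, with 0.461, 0.555 and 4.24 in the crispant pools and 0.308, 0.525 and 0.970 in the WT pools.

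**Figure D3:**
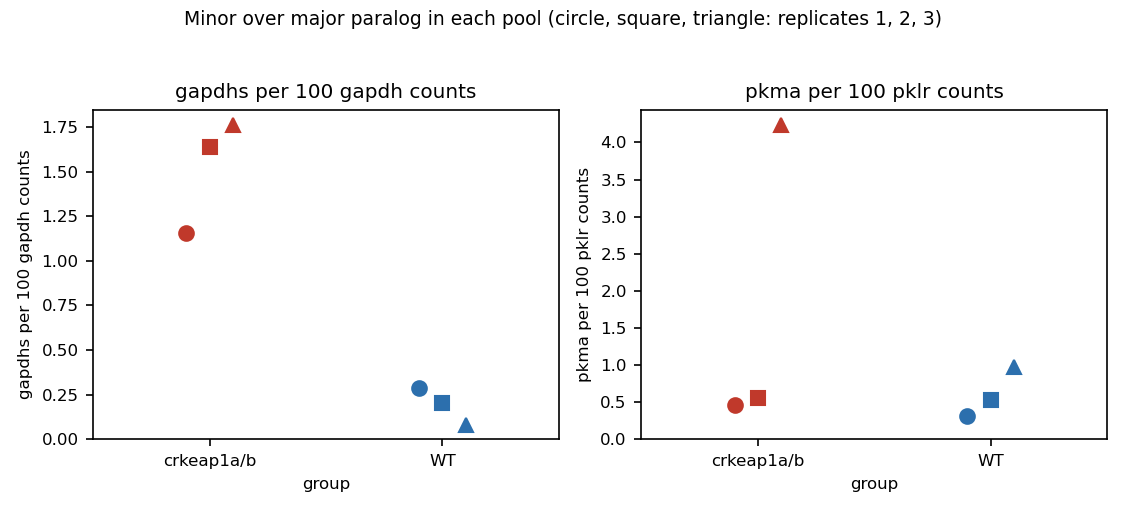
Counts of the rare paralog per 100 counts of the abundant one in each pool, with cr*keap1a/b* (red) left of WT (blue): *gapdhs* per 100 *gapdh* counts (left panel) and *pkma* per 100 *pklr* counts (right panel), on linear axes from 0. Circles, squares and triangles are replicates 1, 2 and 3. For *gapdhs* the 3 cr*keap1a/b* pools lie at 1.16 to 1.76, above the 3 WT pools at 0.0763 to 0.285, while for *pkma* the groups overlap and cr*keap1a/b* replicate 3 stands highest.

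*gpia* (Entrez ID 246094), glucose-6-phosphate isomerase, had 696, 663 and 588 CPM in cr*keap1a/b*, against 298, 320.4 and 632 CPM in WT. The cr*keap1a/b* pools lay close together, and WT replicate 3 stood with them, well above the other WT pools. With all 6 pools the log2 fold change was 0.57 ± 0.39 (SE, limma-voom adjusted p = 0.756). Within letter a *gpia* rose by 1.16 ± 0.29 (SE) on the log2 scale (limma-voom adjusted p = 0.00253, limma with a trend 0.00873, edgeR 0.0715). Between the replicate 3 libraries the difference was −0.10, with no replicate check.

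The other glycolytic genes were not called in either fit. *eno3*, an enolase known as the muscle form in mammals, had 2987, 2654 and 1587 CPM in cr*keap1a/b*, against 3765, 4327 and 2653 CPM in WT (log2 fold change −0.52 ± 0.17, SE, limma-voom adjusted p = 0.163). The groups overlapped by a narrow margin, at 2654 CPM in cr*keap1a/b* replicate 2 and 2653 CPM in WT replicate 3. The summed skeletal muscle markers given above did not overlap and were lower in cr*keap1a/b*. They were highest in WT replicate 1 (2457 CPM), while *eno3* was highest in WT replicate 2, where these markers summed to 659 CPM. Of the hepatocyte markers, 13 of 16 had negative log2 fold changes as well. The part of either marker list in the *eno3* value was not tested. *pgk1*, the phosphoglycerate kinase gene, and *ldhba*, a lactate dehydrogenase gene, differed little. *pgk1* averaged 899 ± 102 CPM in cr*keap1a/b* and 859 ± 233 CPM in WT, and *ldhba* 785 ± 72.0 CPM in cr*keap1a/b* and 757 ± 60.6 CPM in WT (SD, n = 3 each). For *ldhba* the 95% interval of the log2 fold change was −0.52 to 0.70, and for *pgk1* −0.39 to 0.80, so changes within these intervals were not excluded.

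Rarer glycolytic genes could not be resolved. *ldha*, the other lactate dehydrogenase gene among the 40, had 14.4, 35.6 and 33.5 CPM in cr*keap1a/b*, against 40.8, 0 and 0 CPM in WT. The log2 fold change of *ldha*, 5.91 ± 2.81 (SE), was the highest of the 40 without being called (limma-voom adjusted p = 0.594). *gck*, glucokinase, which phosphorylates glucose in hepatocytes, had 54.1, 9.71 and 0 CPM in cr*keap1a/b*, against 11.4, 0 and 0 CPM in WT. Its log2 fold change of 3.01 ± 3.69 (SE) leaves either direction possible. *aldoaa*, *aldoab*, *tpi1b*, *pgam1a*, *pgam1b*, *eno1b* and *pkma* overlapped between the groups as well.

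**Figure D4:**
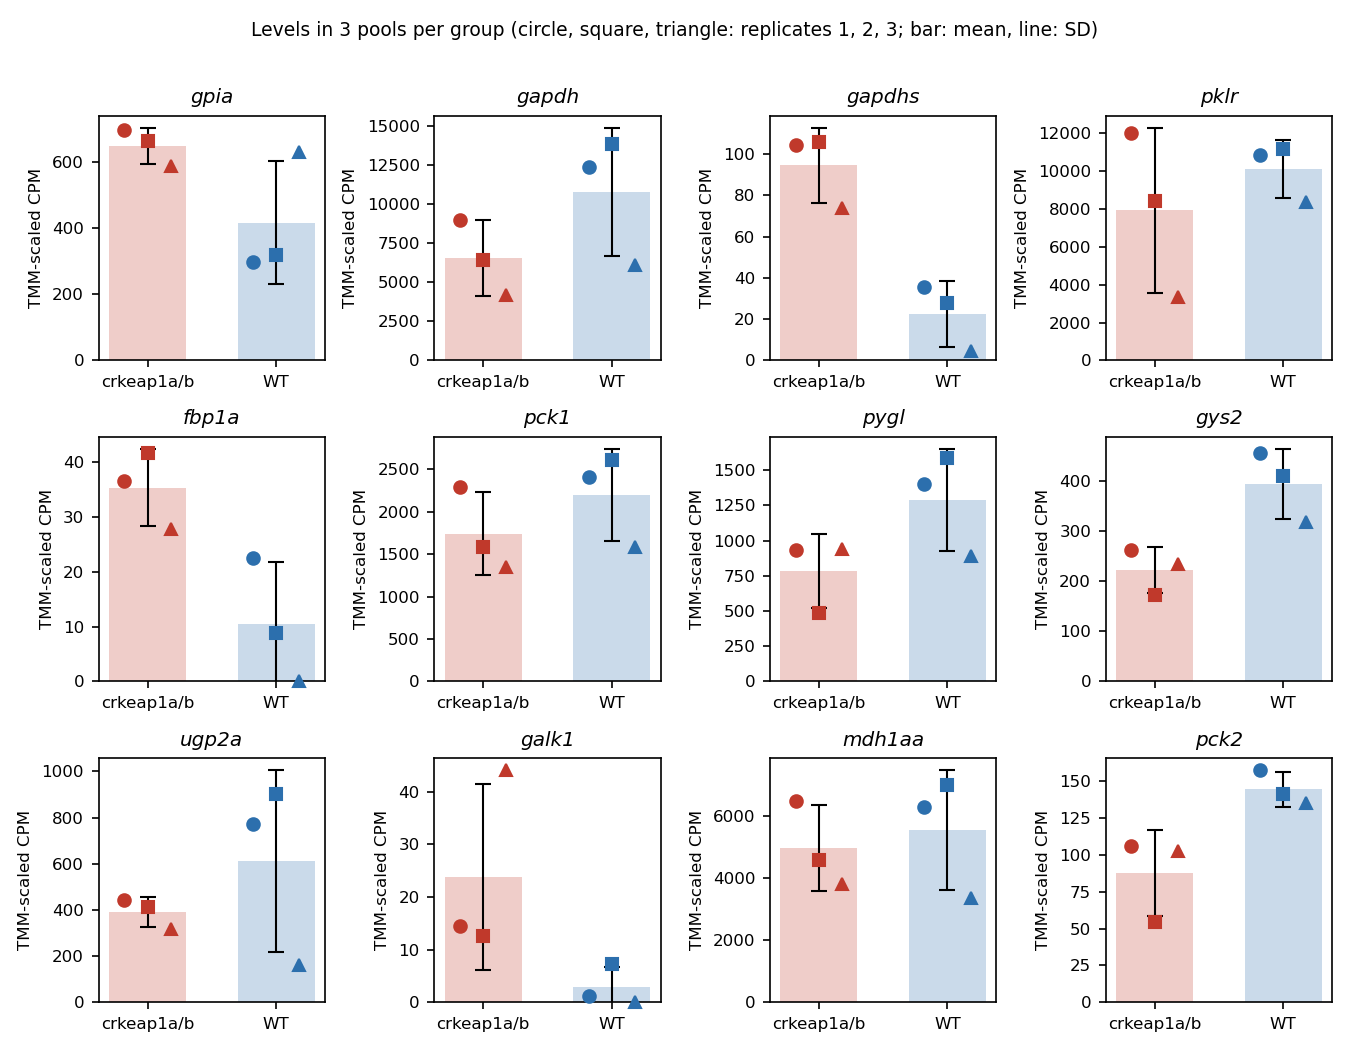
TMM-scaled CPM of 12 enzyme genes in the 3 cr*keap1a/b* pools (red, left) and the 3 WT pools (blue, right), each panel on its own linear axis from 0. Bars are means, lines are SD (cut at 0), and circles, squares and triangles are replicates 1, 2 and 3. The groups stand apart for *gapdhs*, *fbp1a*, *gys2*, *galk1* and *pck2*, and overlap in the other panels.

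Gluconeogenesis was measured through 6 genes, of which none was called in either limma-voom fit and 1 had an unadjusted p under 0.05. A negative log2 fold change was given to 3 of the 6 with all 6 pools and to 5 within letter a. Over all genes tested, 2743 of 6386 were negative with all 6 pools and 2874 of 6456 within letter a. The split depended on the test, since *pcxb*, at 0.47 ± 2.54 (SE) with all 6 pools, had −0.92 by edgeR and −0.97 by DESeq2. Their summed level was 2760.1, 1835 and 1676 CPM in cr*keap1a/b*, against 3013, 3071 and 1899 CPM in WT. Most of this sum came from *pck1*, which averaged 1970 CPM over the 6 pools.

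*pck1* (Entrez ID 378727), the cytosolic phosphoenolpyruvate carboxykinase and rate-setting enzyme of the pathway, was the most abundant of them. It had 2293, 1587 and 1348 CPM in cr*keap1a/b*, against 2409.8, 2604 and 1579 CPM in WT. The groups overlapped, with a log2 fold change of −0.25 ± 0.21 (SE, limma-voom adjusted p = 0.823) and a 95% interval of −0.67 to 0.16. *pck2* (Entrez ID 406473), its mitochondrial counterpart, had 106, 54.2 and 103 CPM in cr*keap1a/b*, against 158, 141 and 135 CPM in WT. Every cr*keap1a/b* pool lay below every WT pool, though not when CPM were scaled by library size. *pck2* was not called (log2 fold change −0.76 ± 0.72, SE, limma-voom adjusted p = 0.902).

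*fbp1a* (Entrez ID 335231), fructose-1,6-bisphosphatase, which reverses the phosphofructokinase step, was higher in each cr*keap1a/b* pool. It had 36.5, 41.8 and 27.8 CPM in cr*keap1a/b*, against 22.5, 8.82 and 0 CPM in WT. The fitted log2 fold change of 4.49 ± 2.88 (SE) was not called (limma-voom adjusted p = 0.742), and within letter a it was 1.42 ± 0.85 (SE). The gap between these values comes with the replicate 3 libraries, where *fbp1a* had counts in cr*keap1a/b* and 0 in WT.

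The glucose-6-phosphatase catalytic genes release free glucose from the liver, and 2 copies were measured. *g6pca.2* (Entrez ID 563180) had 133, 64.0 and 6.86 CPM in cr*keap1a/b*, against 179, 137 and 133 CPM in WT. cr*keap1a/b* replicate 1 lay just under the lowest WT pool, and the log2 fold change of −2.16 ± 0.99 (SE) was not called (limma-voom adjusted p = 0.552). Within letter a *g6pca.2* had −0.77 ± 0.39 (SE), and with all 6 pools edgeR gave −1.14. Leaving out single pools moved the limma-voom value between −2.85 and −0.69. *g6pca.1* had 168, 51.4 and 189 CPM in cr*keap1a/b*, against 178, 131 and 51.7 CPM in WT, and overlapped. These copies are close in name and possibly in sequence, so how the counting shared reads between them is uncertain. *pcxb*, the pyruvate carboxylase gene, overlapped, with counts near 0 in both replicate 3 libraries.

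Glycogen metabolism was measured through 6 genes, with none called in 6 pools and 1 at an unadjusted p under 0.05. The median log2 fold change of the 6 genes was −0.66, against 0.36 over all genes tested and 0.01 over those above 0 in every pool. All but *pgm1*, phosphoglucomutase, had a negative value, that of *ugp2a* being near 0. Within letter a, 3 of the 6 were called lower by limma-voom, at a background of 2.15%, and the median was −0.98, against 0.21 over all genes. These 3 are among the 5 glycogen genes above 0 in every pool, and over all genes of that kind 6.31% were called lower within letter a, with a median of 0.07. The hepatocyte markers given above, had 7 of 16 called lower in the same fit. The 3 genes are the synthase (*gys2*), the phosphorylase (*pygl*) and the enzyme that makes the synthase's substrate (*ugp2a*). In the replicate 3 libraries their log2 differences were −0.44, 0.08 and 0.97 in this order, with no replicate check.

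*gys2* (Entrez ID 373082), the liver glycogen synthase, had 261, 172 and 234 CPM in cr*keap1a/b*, against 454, 410.1 and 317 CPM in WT. It was the 1 gene of the group whose pools did not overlap, and they stayed apart with library-size scaling. The mean was 222 ± 45.3 CPM in cr*keap1a/b* and 394 ± 69.9 CPM in WT (SD, n = 3 each). With all 6 pools *gys2* was not called (log2 fold change −0.78 ± 0.48, SE, limma-voom adjusted p = 0.741). Within letter a *gys2* fell by 1.01 on the log2 scale (limma-voom adjusted p = 0.0256, limma with a trend 0.0503, edgeR 0.223).

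*pygl* (Entrez ID 493916), the liver glycogen phosphorylase, had 937, 485 and 939.6 CPM in cr*keap1a/b*, against 1402, 1586 and 888 CPM in WT. WT replicate 3 lay below cr*keap1a/b* replicates 1 and 3, and the other WT pools lay above every cr*keap1a/b* pool. The log2 fold change was −0.60 ± 0.29 (SE) with all 6 pools (limma-voom adjusted p = 0.619). Within letter a *pygl* fell by 1.13 on the log2 scale (limma-voom adjusted p = 0.000304, limma with a trend 0.0214, edgeR 0.211). The difference between the replicate 3 libraries was 0.08, with no replicate check.

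*ugp2a* (Entrez ID 555748), UDP-glucose pyrophosphorylase, had 443, 415 and 318 CPM in cr*keap1a/b*, against 772, 903 and 163 CPM in WT. WT held both the highest and the lowest pool. The log2 fold change with all 6 pools was −0.01 ± 0.45 (SE), and leaving out single pools moved it between −1.12 and 0.42. Within letter a *ugp2a* fell by 0.94 on the log2 scale (limma-voom adjusted p = 0.0173, limma with a trend 0.0323, edgeR 0.127). Between the replicate 3 libraries the difference was 0.97, in the opposite direction, with no replicate check.

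The branching enzyme *gbe1b* and the debranching enzyme *agla* were rarer and overlapped between the groups. *gbe1b* had 26.2, 11.1 and 0 CPM in cr*keap1a/b*, against 69.9, 52.5 and 0.0583 CPM in WT, where the last value is below 3 counts. *pgm1*, which interconverts glucose 1-phosphate and glucose 6-phosphate, averaged 907 ± 273 CPM in cr*keap1a/b* and 674 ± 123 CPM in WT (SD, n = 3 each) and was not called (log2 fold change 0.43 ± 0.32, SE, limma-voom adjusted p = 0.798).

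**Figure D5:**
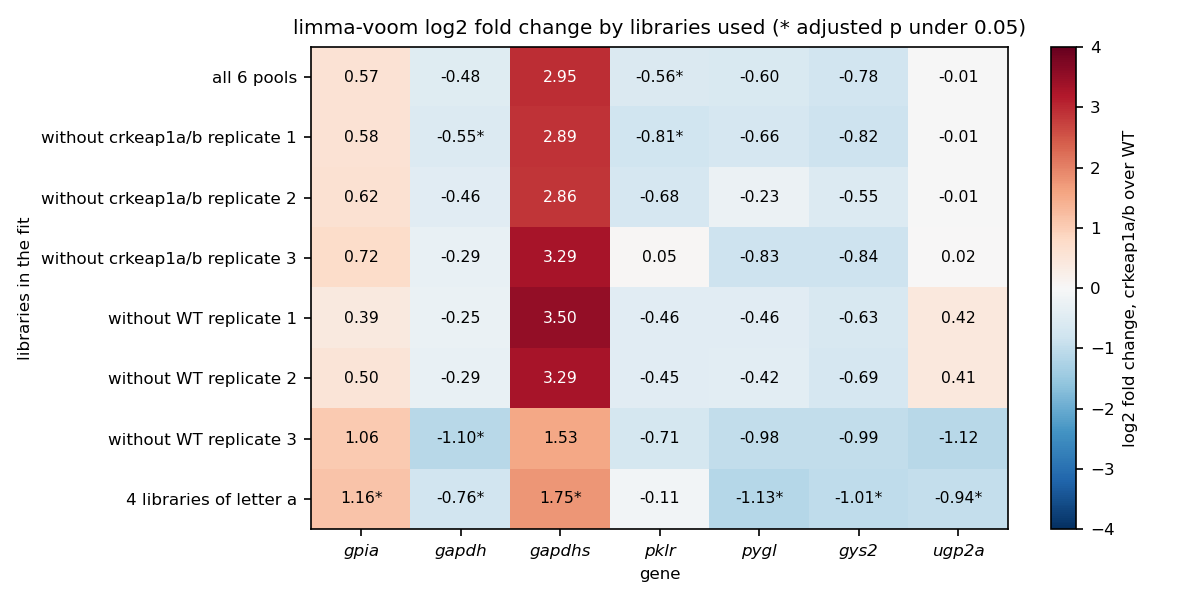
Limma-voom log2 fold change (cr*keap1a/b* over WT, red higher and blue lower) of 7 genes in the fit of all 6 pools, in the 6 fits that leave out 1 pool each, and in the 4 libraries of letter a. Asterisks mark an adjusted p under 0.05. *pklr* loses its negative value without cr*keap1a/b* replicate 3, and *ugp2a* runs from −1.12 to 0.42, while *gapdh*, *pygl* and *gys2* are negative and *gpia* and *gapdhs* positive in each fit shown.

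Fructose and galactose use was measured through 3 rare genes, each at 0 in at least 1 pool, and none was called. No unadjusted p among them was under 0.05. *galk1* (Entrez ID 449829), galactokinase, had 14.5, 12.6 and 44.1 CPM in cr*keap1a/b*, against 1.26, 7.35 and 0 CPM in WT. The pools did not overlap, and the log2 fold change of 4.87 ± 2.93 (SE) was not called (limma-voom adjusted p = 0.741). *gale* (Entrez ID 678540), UDP-galactose 4-epimerase, had 23.3, 16.5 and 0 CPM in cr*keap1a/b*, against 6.49, 0 and 51.2 CPM in WT, and its direction depended on the libraries used. *tkfc*, a triokinase of fructose use, had 8.26, 0.239 and 12.3 CPM in cr*keap1a/b*, against 12.4, 22.8 and 0 CPM in WT.

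Pyruvate dehydrogenase and the TCA cycle were measured through 9 genes. None was called in either limma-voom fit and none had an unadjusted p under 0.05 with all 6 pools. The signs were mixed, with 6 positive and 3 negative, and no gene had groups that did not overlap. Their summed level was 9078, 7271 and 5996 CPM in cr*keap1a/b*, against 8475, 9438 and 5238 CPM in WT. Most of this sum came from *mdh1aa*, which averaged 5254 CPM over the 6 pools.

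*mdh1aa* (Entrez ID 399662), the cytosolic malate dehydrogenase that carries reducing equivalents between cytosol and mitochondrion, was the most abundant. It had 6485, 4581 and 3817 CPM in cr*keap1a/b*, against 6289, 7004 and 3350.0 CPM in WT. The log2 fold change of 0.05 ± 0.14 (SE) had a 95% interval of −0.24 to 0.33, the narrowest interval of the 40 (limma-voom adjusted p = 0.9996). This interval rests largely on the spread shared over all genes. Without single pools the value of *mdh1aa* ran from −0.47 to 0.25, beyond the lower end of the interval. *suclg1*, the alpha subunit of succinyl-CoA ligase, had 1743, 1997 and 1347 CPM in cr*keap1a/b*, against 1412, 1654 and 1214 CPM in WT. Within letter a the cr*keap1a/b* pools lay above the WT pools, but the 6 pools overlapped (log2 fold change 0.28 ± 0.22, SE, limma-voom adjusted p = 0.819).

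The other cycle genes were measured less well. *cs*, citrate synthase, had 43.3, 22.5 and 0 CPM in cr*keap1a/b*, against 54.3, 30.9 and 36.5 CPM in WT. Its fitted value of −3.76 ± 2.71 (SE) was the lowest of the 40, and within letter a it was −0.42 ± 0.61 (SE). *pdhb*, a pyruvate dehydrogenase subunit gene, *aco1*, *idh3a*, *ogdha*, *fh* and *mdh2* ranged from −0.93 for *idh3a* to 1.78 for *aco1* on the log2 scale, without a call. The value of *idh3a* turned with the fit, to 1.41 within letter a, 0.54 by edgeR and 0.40 by DESeq2, and its mean was higher in cr*keap1a/b* (26.3 CPM) than in WT (18.1 CPM).

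Other genes of these pathways were read from a list of 117 symbols, of which 53 were in the table and 51 were tested with all 6 pools. limma-voom called none higher and 1 lower, with 4 at an unadjusted p under 0.05, while DESeq2 called 1 higher and 2 lower and edgeR's quasi-likelihood test called none. Over all genes tested, limma-voom called 0.595% higher and 0.595% lower. In either direction DESeq2 called 3.15% of the 4727 genes to which it gave an adjusted p, and edgeR 0.345% of 6386. Some related genes, *eno2* and *ldhd* among them, were given no adjusted p by DESeq2. The groups did not overlap for 4 related genes higher and 3 lower. This is 13.7% of those tested, beside 13.4% of all genes tested.

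Within letter a, limma-voom called 5 of the 53 related genes, 2 higher and 3 lower. Over all 6456 genes tested there, 2.31% were called higher and 2.15% lower. Among genes above 0 in all 6 pools, where these 5 calls fell, 13.1% were called in either direction. *got2b* (Entrez ID 335974), the mitochondrial aspartate aminotransferase of the malate-aspartate shuttle, had 435, 439 and 492 CPM in cr*keap1a/b*, against 92.5, 111 and 176 CPM in WT. Its groups did not overlap, and it rose by 2.14 ± 0.36 (SE) on the log2 scale within letter a (limma-voom adjusted p = 4.95e-07, edgeR 0.00912). With all 6 pools the log2 fold change was 1.80 ± 0.56 (SE, limma-voom adjusted p = 0.108), while DESeq2 gave 0.0248.

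*akr1b1.1* (Entrez ID 415138), an aldose reductase gene, had 250.2, 191 and 194 CPM in cr*keap1a/b*, against 86.8, 68.4 and 156 CPM in WT, and the groups did not overlap. It rose by 1.51 on the log2 scale within letter a (limma-voom adjusted p = 0.0067, edgeR 0.0808), and its value with all 6 pools was 0.93 ± 0.66 (SE, limma-voom adjusted p = 0.776). *slc2a2* (Entrez ID 322493), the liver glucose transporter GLUT2, had 85.5, 28.6 and 176 CPM in cr*keap1a/b*, against 127, 254 and 18.2 CPM in WT. It fell by 1.85 on the log2 scale within letter a (limma-voom adjusted p = 0.000996, edgeR 0.254) and had 0.49 ± 0.90 (SE) with all 6 pools. *gpd1b* (Entrez ID 325181), a cytosolic glycerol-3-phosphate dehydrogenase, had 270.4, 202 and 226 CPM in cr*keap1a/b*, against 466, 452 and 83.6 CPM in WT. It fell by 0.96 on the log2 scale within letter a (limma-voom adjusted p = 0.0366, edgeR 0.202), and its 6-pool value was 0.13 ± 0.55 (SE). For both *slc2a2* and *gpd1b*, the replicate 3 libraries stood in the opposite order to the other pools.

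*aldocb*, an aldolase gene known as a brain-type form in mammals, was picked out after its values were seen. It had 75.2, 47.9 and 61.6 CPM in cr*keap1a/b*, against 14.8, 11.8 and 8.63 CPM in WT. The groups did not overlap, and the log2 fold change of 2.49 ± 1.87 (SE) was not called (limma-voom adjusted p = 0.798). *pdk2b*, another related gene picked out afterwards, went the other way. It had 19.3, 22.0 and 3.39 CPM in cr*keap1a/b*, against 83.1, 43.3 and 313 CPM in WT, without overlap. Its log2 fold change of −3.74 ± 1.84 (SE) was not called by limma-voom (adjusted p = 0.629), while DESeq2 gave an adjusted p of 0.025.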

How the data were processed

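RNA-seq of 6 pools of dissected larval livers was analysed, 3 cr*keap1a/b* and 3 WT, grouped by the sample titles. Per the study's methods, the authors prepared QuantSeq 3′ libraries, trimmed single-end reads with Cutadapt 1.16, aligned them with STAR 2.7.5b to GRCz11 (danRer11) and counted them per gene with featureCounts 1.6.3 on a published annotation. The deposited table gives raw counts, as whole numbers, for 6637 rows labelled by Entrez ID. The 135 rows without an ID hold 9.82% to 13.6% of the counts per library and were left out of library sizes and tests. Symbols for 6426 of the 6502 IDs came from the RefSeq gene table of GRCz12tu, an assembly other than the authors', and no coordinates were taken from it. *g6pca.1* and *g6pca.2* were matched by synonym.

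The comparison used limma-voom (limma 3.58.1, edgeR 4.0.16, R 4.3.3), which the study names: filterByExpr by group, TMM factors, voom weights, a model of group alone, eBayes, and Benjamini-Hochberg adjustment over all genes tested. All 40 genes passed the filter on low counts. The comparison was repeated with edgeR's quasi-likelihood test, DESeq2 1.42.0, limma with a trend (prior count 2), other scalings and filters, replicate blocks, the letter as a covariate, the letter a libraries only, and without each pool in turn. The number of pools and the totals of 9491003 to 15030262 counts limit the precision. Reads carry no stated molecular identifiers, so floors cover counting error only.

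Per-pool values are given for genes called with all 6 pools or within letter a, for those whose groups did not overlap and for the most abundant gene of each pathway, with a few others marked or given in short. Related genes are named when called in either fit, and 1 of them is not reported here. The genes, lists and this rule were chosen with earlier results of these data known. Replicate numbers in the titles and in the descriptions differ, and neither is said to mark shared animals or days. Per the study's methods, controls were siblings from the clutch, but the labels do not tie any pool to a clutch. Pools were therefore not treated as pairs in the main comparison.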

Additional observations from a re-analysis of the deposited data

How the results depend on the processing

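The genes called higher and lower over the whole table numbered 38 and 38 with all 6 pools, 16 and 6 with edgeR's quasi-likelihood test, 103 and 46 with DESeq2, 27 and 22 for limma with a trend, 9 and 27 with RLE size factors, 26 and 27 with library size only, 7 and 10 with the letter as a covariate, 24 and 29 with the rows without a gene ID kept, and 149 and 139 within letter a (89 and 31 by edgeR, 171 and 99 by limma with a trend). Scaling by library size moved the median of all genes to 0.57, from 0.36 with TMM factors. Leaving out each pool in turn gave 0 to 125 genes higher and 1 to 71 lower, and both counts were highest only when a replicate 3 library was left out.

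Of the 40 enzyme genes, none was called higher except within letter a (2 by limma-voom and 2 by limma with a trend). Against 1 called lower, edgeR, DESeq2, limma with a trend, no further filter, the letter as a covariate, the rows without a gene ID kept and edgeR within letter a gave 0, RLE size factors and library size only gave 2 (*pklr* and *gapdh*), and letter a gave 4 (2 by limma with a trend). A mean count of at least 50 gave 1, *gapdh* in place of *pklr*. Leaving out each pool gave 0 higher and 0 to 2 lower, with a median from −0.33 (without WT replicate 3) to 0.29. Of the related genes, 0 to 2 were then higher and 0 to 1 lower. Against 0 higher and 1 lower in 6 pools, DESeq2 gave 1 and 2, and letter a gave 2 and 3 (1 and 1 by edgeR, 3 and 2 by limma with a trend), while edgeR, no further filter, the letter as a covariate and the rows without a gene ID kept gave 0 lower.

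Same-numbered pools did not deviate together: the deviations from the group means correlated at 0.04, 0.01 and 0.07 by title number and at 0.05, 0.05 and 0.07 by description code, where each cr*keap1a/b* pool correlated best with its own code. A fit with the title number as a replicate block called 1 gene higher and 2 lower, and one with the description code called 2 and 3. Neither block called any of the 40 genes. The related genes called lower numbered 0 with the block by title number and 1 with that by description code.

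Of the 40 enzyme genes, 21 kept the sign of the 6-pool fit in every other fit and 19 did not, and 13 differed in sign within letter a, *aldoab*, *g6pca.1*, *idh3a*, *pgam1b*, *pcxb* and *tkfc* among them. For the genes chosen by the rule for per-pool values and for *keap1a* and *keap1b*, signs changed as follows on the log2 scale. *pklr* ran from −0.81 to 0.047 without single pools, *ugp2a* from −1.12 to 0.42, *gale* from −3.45 to 2.83, *mdh1aa* from −0.47 to 0.25, *slc2a2* from −1.18 to 1.19, *gpd1b* from −0.997 to 0.64, *keap1a* from −3.37 to 2.62 and *keap1b* from −3.47 to 3.07. *ugp2a* was 0.061 with library size only and 0.0034 with no further filter. *gale* was 0.067 for limma with a trend and 4.89 within letter a (2.64 by edgeR, 4.14 by limma with a trend). *mdh1aa* was −0.16 by edgeR, −0.18 by DESeq2, −0.13 for limma with a trend, −0.045 at a mean count of at least 50, −0.096 and −0.13 with the blocks by title number and description code, −0.16 with the letter as a covariate and −0.27 within letter a (−0.24 by edgeR, −0.26 by limma with a trend). In the same order without the count filter, *slc2a2* was −0.46, −0.37, −0.15, −0.12, −0.25, −0.24 and −1.85 (−1.72, −1.84), and *gpd1b* was −0.52, −0.50, −0.17, −0.36, −0.37, −0.37 and −0.96 (−0.94, −0.95). Within letter a *keap1a* was 3.91 (0.39 by edgeR, 3.22 by limma with a trend) and *keap1b* 0.016 (0.099 and 0.040), with *keap1b* at 0.066 by edgeR and 0.00096 by DESeq2 in 6 pools. The cause of these changes was not tested. With 3 pools per group and 47.6% and 53.2% of genes at 0 in the replicate 3 libraries, changes of the rarer genes were not resolved. The zeros did not follow the totals: WT replicate 3 had 15030262 counts, the highest total, and WT replicate 2 had 9491003, the lowest, with 13.1% of genes at 0.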
